A study of Mus musculus with 14 samples.

Results

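Glucose metabolism and the response to low oxygen were followed in mouse bone marrow cells, sorted as carrying Sca1 and lacking cKit, through 39 listed genes: 24 of glucose uptake, glycolysis, lactate handling and their control, and 15 of the hypoxia response. All probe sets that the platform annotation names for a listed gene alone were taken, and a gene was represented by the brightest of its probe sets, judged by the mean of all 14 arrays. In this way 32 of the 39 genes were measured, by 62 of the 22626 probe sets tested, among 12393 genes in all. Gapdh was read by 3 array control probe sets, and by 2 probe sets shared with another symbol that were not used. It is described from the control sets without a test. Bnip3l was read only by probe sets shared with another symbol, and Gpi1, Hk3, Eno1, Pfkfb4 and Ankrd37 have no probe set named for them alone in the annotation used here, so these 6 genes were not analysed here.

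Mice carried 1 of 3 implants. Matrigel, a basement membrane extract, was the implant without tumour cells (Matrigel, n = 4). BPLER tumours, grown from a transformed human mammary epithelial line, were the instigating tumours (Instigator, n = 5), and tumours of PC3, a human prostate carcinoma line, were the non-instigating ones (Non-instigator, n = 5). Both tumour groups were matched in size, and host strain and age are not given in the labels used here. The marrow cells of all 3 groups went through the same flow cytometric sort, so none of the groups is whole marrow. Both tumour lines are human, and the mouse arrays read RNA of the host's marrow. Whether each array is a separate animal is not stated, so each p-value measures only how these samples spread, and that spread may be technical.

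Glycolysis splits glucose into pyruvate in the cytosol and yields ATP without oxygen, and lactate dehydrogenase turns pyruvate into lactate so that the pathway can go on. When oxygen is scarce, prolyl hydroxylases no longer mark the alpha subunits of the hypoxia-inducible factors (HIFs) for destruction by the VHL ubiquitin ligase, and HIF raises transcription of most glycolytic enzymes, of glucose and lactate carriers and of genes of angiogenesis and autophagy. Bone marrow is a tissue of low oxygen, and its neutrophils and stem cells are known for a strong reliance on glycolysis.

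HIF binds DNA at the cores ACGTG and GCGTG. Of the 5 members that lay higher in marrow of Instigator mice at an unadjusted p under 0.05, the promoters of the 4 that held ACGTG are shown, because the same letters recur in them. Each is the 250 bases before a RefSeq start on GRCm38.p6, printed 5′ to 3′ on the gene's strand, with ACGTG and its reverse complement CACGT in capitals. They lie at chr12:54203875-54204124 on the minus strand (Egln3), chr19:41911621-41911870 on the plus strand (Pgam1), chr7:46845554-46845803 on the plus strand (Ldha) and chrX:106186850-106187099 on the plus strand (Pgk1).
Egln3: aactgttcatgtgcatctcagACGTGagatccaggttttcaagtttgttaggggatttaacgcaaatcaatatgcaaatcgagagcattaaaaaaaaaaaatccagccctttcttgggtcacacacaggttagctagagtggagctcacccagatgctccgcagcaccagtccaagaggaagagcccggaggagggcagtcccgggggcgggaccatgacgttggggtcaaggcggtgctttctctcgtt
Pgam1: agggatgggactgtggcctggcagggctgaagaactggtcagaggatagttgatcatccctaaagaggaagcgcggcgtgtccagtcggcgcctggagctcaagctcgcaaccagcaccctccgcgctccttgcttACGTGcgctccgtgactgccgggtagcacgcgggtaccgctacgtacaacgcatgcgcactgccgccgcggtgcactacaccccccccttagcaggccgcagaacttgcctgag
Ldha: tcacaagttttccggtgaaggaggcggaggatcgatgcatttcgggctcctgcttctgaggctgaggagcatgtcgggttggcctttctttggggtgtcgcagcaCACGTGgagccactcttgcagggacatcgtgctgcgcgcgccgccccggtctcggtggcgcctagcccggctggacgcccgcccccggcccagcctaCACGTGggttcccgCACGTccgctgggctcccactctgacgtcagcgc
Pgk1: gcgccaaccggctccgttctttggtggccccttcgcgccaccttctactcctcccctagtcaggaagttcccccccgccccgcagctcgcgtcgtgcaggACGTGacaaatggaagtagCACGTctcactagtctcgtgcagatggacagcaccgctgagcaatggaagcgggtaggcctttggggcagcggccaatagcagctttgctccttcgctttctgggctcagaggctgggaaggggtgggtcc
The search covered both strands, and the palindrome CACGTG, which other factors also bind, counts once on each strand. Egln3 and Pgam1 held 1 match each, Pgk1 held 2, and this Ldha promoter held 5, of which 4 came from its CACGTG palindromes. Hk1, which also lay higher in Instigator marrow, held 0 matches to ACGTG in its promoters, which are not printed. Its promoter at chr10:62340422-62340671 held 3 matches to the other core, GCGTG. Of the 32 measured members 30 had a promoter in the RefSeq table, and 20 of the 30, or 66.7%, held ACGTG in at least 1 of them, against 23.0% of the 9887 measured genes with a promoter. Counted by promoter, 24 of 44 member promoters (54.5%) held it, against 16.6% of all 32851 promoters, not only those of measured genes. Windows of a gene can overlap, and overlapping Aldoa windows held the same match. The other HIF core, GCGTG (reverse CACGC), was found in 20 of 30 members, against 44.7% of measured genes. CACGTG stood in 6 of 30 members, against 9.19% of measured genes, and in 6 of 44 member promoters (13.6%), against 6.02% of all promoters. A match to these letters is a description of the window and not a bound site. The members were listed as genes of glycolysis and the hypoxia response, many of which HIF raises. The shares of its cores depend on that choice and were not tested.

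The arrays differed in ways that touch these genes. On Instigator 4 the Gapdh control read 4.03 lower at its 5′ set than at its 3′ set on the log2 scale, against 0.73 to 1.16 on the other 13 arrays, and that array was the highest of the 14 for 9 members and the lowest for 9 (56.2% of members at either end, against 42.2% of all genes). The median intensity of Matrigel 3 was 145, against 119 to 129 on the others. The description of Instigator 5 names the PC3 tumour, against its title and source label, and it was kept as Instigator. Kit, the antigen excluded by the sort, lay at 7.52 ± 0.37 in Matrigel (SD, n = 4), 7.58 ± 0.22 in Instigator (SD, n = 5) and 7.37 ± 0.45 in Non-instigator (SD, n = 5) on the log2 intensity scale. Ly6a, which encodes Sca1, was not analysed here. Values below are log2 intensity as a level, or a difference between group means of log2 intensity, and levels of different genes are not compared. Where a difference is given, limma was fitted to all 14 arrays with Benjamini-Hochberg adjustment across all probe sets tested.

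**Figure D1:**
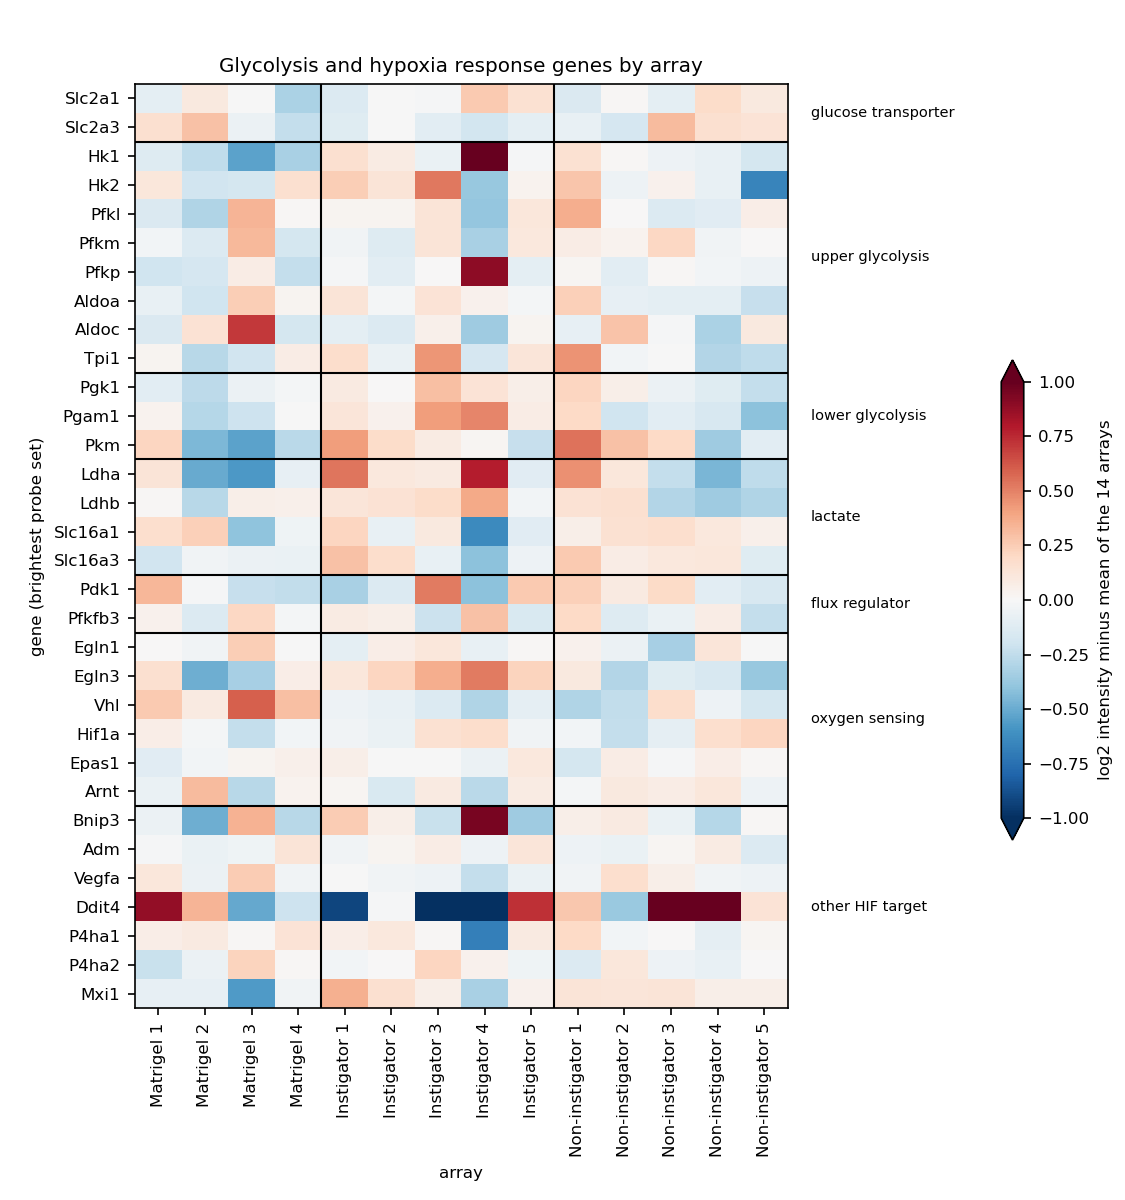
Each row is a measured member and each column an array, and colour gives the log2 intensity of the brightest probe set minus its mean over the 14 arrays, with colours clipped past 1 in either direction. Instigator 4 is at an extreme in 18 of 32 rows, and the rows of Pgam1, Ldha and Egln3 are highest on Instigator arrays.

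The 32 measured genes were first compared between mice with the instigating tumour and mice with Matrigel, which asks whether marrow far from a tumour of this kind differs in them. Transcripts of Egln3, Hk1, Pgam1, Ldha and Pgk1 lay higher in Instigator marrow by 0.23 to 0.59 on the log2 scale (1.17-fold to 1.5-fold), and that of Vhl lay lower by 1.36-fold. Neither these nor any other member passed the adjusted test: limma called 0 of 62 member probe sets and 0 of all probe sets (percent called 0), and the smallest adjusted p of a member was 0.439. At an unadjusted p under 0.05, which is descriptive, 5 of 32 members lay higher (15.6%) where 3.63% of all genes did, and 1 lay lower where 5.16% of all genes did. Hk1 and Egln3 stayed under that p without each array in turn. Without Matrigel 2 they alone of the 5 were left. Ldha was lost without Instigator 1, Instigator 4, Matrigel 2 or Matrigel 3, Pgk1 without Instigator 3, Matrigel 1 or Matrigel 2, and Pgam1 without Matrigel 2. Mxi1 was added without Instigator 4, Pkm without Instigator 5 or Matrigel 1, and Ddit4, on the lower side, without Instigator 5. With Instigator 4 and Matrigel 3 left out together, the higher members were Hk1, Pfkp, Pgk1 and Mxi1, so Egln3, Pgam1 and Ldha were lost. Over the 32 members 21 differences were above 0, against 45.9% of all genes, and their median was 0.05, against -0.02 over all genes. Without Matrigel 3, 71.9% of members and 58.4% of all genes were above 0. After quantile normalization 71.9% and 56.4% were, and centred on each array's median 78.1% and 64.7%. At that unadjusted p, 5 of 32 members and 6.69% of all genes lay higher after quantile normalization. After centring 6 members and 8.61% of all genes did.

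Genes of glucose breakdown and lactate production made up 4 of these 5 higher members. Of the 19 measured glycolysis genes 14 lay above 0, with a median of 0.13. The 13 measured hypoxia genes had a median of 0.02, with 7 above 0, 1 higher and 1 lower at that p.

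Among glucose carriers, Slc2a1, the main carrier of most cells, differed by 0.13 (SE 0.11), and Slc2a3, a high-affinity carrier, by -0.14 (SE 0.12). Slc2a1 lay at 10.40 ± 0.18 (SD, n = 4) with Matrigel, 10.53 ± 0.16 (SD, n = 5) with Instigator and 10.49 ± 0.14 (SD, n = 5) with Non-instigator tumours, and the groups overlapped. The 3 Slc2a1 probe sets differed by -0.09 to 0.13 between Instigator and Matrigel, and the 4 Slc2a3 sets by -0.14 to 0.04.

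Hk1, a hexokinase that traps glucose in the cell as its phosphate, read 7.46, 7.33, 7.06 and 7.26 on the 4 Matrigel arrays. On the 5 Instigator arrays it read 7.75, 7.67, 7.52, 8.80 and 7.58, and on the 5 Non-instigator arrays 7.74, 7.60, 7.54, 7.52 and 7.41. Every Instigator array lay above every Matrigel array, and Instigator 4 lay far above the rest. The difference was 0.59 (95% confidence interval 0.15 to 1.03, limma adjusted p = 0.439), and 0.35 without Instigator 4. A second, dimmer Hk1 probe set gave -0.08.

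Hk2, the inducible hexokinase, lay at 9.57 ± 0.19 (SD, n = 4), 9.70 ± 0.33 (SD, n = 5) and 9.50 ± 0.35 (SD, n = 5) in Matrigel, Instigator and Non-instigator marrow, a difference of 0.13 (SE 0.19) between the first groups. Phosphofructokinase sets the pace of glycolysis, and its liver (Pfkl), muscle (Pfkm) and platelet (Pfkp) isoforms differed by 0.01, -0.05 and 0.27. The Pfkp value was 0.08 without Instigator 4, on which it read 10.83 where the other Instigator arrays read 9.83 to 9.93. A second, dimmer Pfkp probe set gave -0.16 (SE 0.17). A second, dimmer Pfkl set gave 0.23 (SE 0.11), from 6.80 to 7.08 in Matrigel and 7.11 to 7.31 in Instigator marrow. Of the aldolases, which cleave the sugar into triose phosphates, Aldoa differed by 0.05 (SE 0.11) and Aldoc, under the median of every array, by -0.24 (SE 0.17), and by -0.04 without Matrigel 3. Tpi1, which interconverts the trioses, differed by 0.19 (SE 0.15), and its other probe sets by 0.003 and 0.14. The 4 Aldoa probe sets ran from -0.14 to 0.20. The Tpi1 set used and all Aldoa sets are of a type that can also bind related sequences.

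Below the triose phosphates, 3 of 5 listed members were measured. Pgam1, Pgk1 and Pkm had a median difference of 0.35, and the first 2 had an unadjusted p under 0.05. Pgam1, the mutase that moves the phosphate of phosphoglycerate, read 11.97, 11.65, 11.72 and 11.93 with Matrigel. With Instigator tumours it read 12.06, 11.98, 12.35, 12.42 and 12.01, and with Non-instigator tumours 12.13, 11.73, 11.83, 11.77 and 11.52. The lowest Instigator array lay just above the highest Matrigel array, and Non-instigator 1 lay within the Instigator range. The difference from Matrigel was 0.35 (95% confidence interval 0.07 to 0.62, limma adjusted p = 0.442), and 0.28 without Instigator 4.

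Pgk1, which makes the first ATP of the pathway, read 11.61, 11.45, 11.65 and 11.69 with Matrigel. Its Instigator values were 11.80, 11.71, 12.01, 11.85 and 11.77, and its Non-instigator values 11.93, 11.77, 11.65, 11.59 and 11.48. Instigator and Matrigel arrays did not overlap, while Non-instigator arrays spanned both. The difference from Matrigel was 0.23 (95% confidence interval 0.02 to 0.44, limma adjusted p = 0.461), and 0.22 without Instigator 4. Both other Pgk1 probe sets, of a type that can also bind related sequences, gave 0.57 and 0.41 in the same direction. Of the Instigator arrays, both sets were highest on Instigator 4, at 11.00 and 11.44. Together with Hk1, Pgam1 and Pgk1 were the 3 of 32 members (9.38%) whose Instigator arrays all lay above all Matrigel arrays at the brightest probe set, where 1.12% of all genes did so.

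Pkm, the pyruvate kinase of most tissues, read 10.71, 10.04, 9.96 and 10.22 with Matrigel, 10.91, 10.67, 10.57, 10.51 and 10.26 with Instigator tumours, and 11.03, 10.78, 10.68, 10.13 and 10.38 with Non-instigator tumours. All 3 groups overlapped. Its difference from Matrigel was 0.35 (SE 0.19) in Instigator marrow.

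Ldha, the subunit of lactate dehydrogenase that favours lactate, read 11.02, 10.39, 10.33 and 10.82 with Matrigel. In Instigator marrow it read 11.43, 11.00, 10.98, 11.68 and 10.78, and in Non-instigator marrow 11.36, 11.01, 10.66, 10.44 and 10.64. Instigator 4 and Instigator 1 were the highest 2 of the 14 arrays, and the groups overlapped through Matrigel 1 and Matrigel 4. The difference from Matrigel was 0.54 (95% confidence interval 0.08 to 1.00, limma adjusted p = 0.443), and 0.41 without Instigator 4, with the unadjusted p no longer under 0.05. Ldhb, the subunit that favours pyruvate, differed by 0.20 (SE 0.13). Of the lactate carriers, Slc16a1, which moves lactate both ways, differed by -0.09 (SE 0.16), and Slc16a3, the export carrier of glycolytic cells, by 0.08 (SE 0.12).

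Of 3 listed flux regulators 2 were measured. Pdk1, a kinase that holds pyruvate back from mitochondria, differed by 0.02 (SE 0.18, from 7.66 ± 0.27 in Matrigel, n = 4, to 7.68 ± 0.39 in Instigator, n = 5, with SD). Pfkfb3, which makes the activator of phosphofructokinase, differed by -0.01 (SE 0.12, from 8.43 ± 0.14, n = 4, to 8.42 ± 0.20, n = 5, with SD).

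In oxygen sensing, Egln3, a prolyl hydroxylase that HIF itself induces, had, among members that lay higher, the highest difference relative to its error. It read 7.36, 6.71, 6.87 and 7.27 with Matrigel, 7.31, 7.41, 7.56, 7.72 and 7.42 with Instigator tumours, and 7.30, 6.90, 7.08, 7.04 and 6.82 with Non-instigator tumours. Instigator arrays were the highest group, and of the other arrays only Matrigel 1 reached into their range. The Instigator difference from Matrigel was 0.43 (95% confidence interval 0.14 to 0.73, limma adjusted p = 0.439), or 1.35-fold. It was 0.38 without Instigator 4 and 0.31 without both Instigator 4 and Matrigel 3. Without both, its unadjusted p was no longer under 0.05. The second Egln3 probe set gave 0.17 (SE 0.26) with overlapping groups, and the mean of both sets gave 0.30.

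Vhl, the substrate-binding part of the ligase that removes HIF alpha subunits, read 5.84, 5.67, 6.18 and 5.88 with Matrigel. It read 5.52, 5.50, 5.44, 5.28 and 5.48 with Instigator tumours, and 5.27, 5.33, 5.75, 5.53 and 5.40 with Non-instigator tumours. No Instigator array reached the Matrigel range, which 1.21% of all genes also showed in this direction. The difference was -0.44 (95% confidence interval -0.69 to -0.20, limma adjusted p = 0.439), and -0.35 without Matrigel 3, its highest array. Vhl is 1 of 7 members whose probe set lay under the array median on every array, the others being Aldoc, Epas1, Arnt, Adm, Vegfa and P4ha2.

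Other sensors lay near 0. Egln1, the main prolyl hydroxylase, differed by -0.05 (SE 0.10, from 9.22 ± 0.13, n = 4, to 9.17 ± 0.09, n = 5, with SD), Epas1 by 0.04 (SE 0.08) and Arnt by -0.05 (SE 0.11). Hif1a, the inducible subunit, whose protein is set mainly by its breakdown, differed by 0.09 (SE 0.10, from 10.67 ± 0.13, n = 4, to 10.77 ± 0.12, n = 5, with SD). Its 4 probe sets ran from -0.54 to 0.09, and their mean gave -0.20.

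Among HIF targets outside glycolysis, 4 of 7 lay above 0, and 0 of 7 had an unadjusted p under 0.05 at the brightest probe set. Ddit4, an inhibitor of mTOR signalling that stress and glucocorticoids also induce, read 11.29, 10.74, 9.89 and 10.20 with Matrigel and 9.49, 10.39, 9.10, 8.65 and 11.14 with Instigator tumours. These ranges overlapped widely, and the difference was -0.78 (95% confidence interval -1.82 to 0.27, limma adjusted p = 0.577), and -0.50 without Instigator 4. Vegfa, the endothelial growth factor, read 6.07, 5.90, 6.21 and 5.92 with Matrigel and 5.95, 5.92, 5.91, 5.72 and 5.89 with Instigator tumours, a difference of -0.15 (SE 0.09), and -0.09 without Matrigel 3. Its other probe set gave 0.22 (SE 0.23). Bnip3, a mitophagy receptor, differed by 0.26 (SE 0.22, from 7.43 ± 0.36, n = 4, to 7.69 ± 0.51, n = 5, with SD), and by 0.05 without Instigator 4. Adm (adrenomedullin) and the collagen prolyl hydroxylases P4ha1 and P4ha2 differed by 0.02, -0.16 and 0.05, and Mxi1, a MYC antagonist, by 0.25 (SE 0.13). The Mxi1 value was 0.13 without Matrigel 3, and that of P4ha1 -0.01 without Instigator 4. A second, dimmer P4ha1 probe set gave -0.39 (SE 0.13), with an unadjusted p under 0.05.

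**Figure D2:**
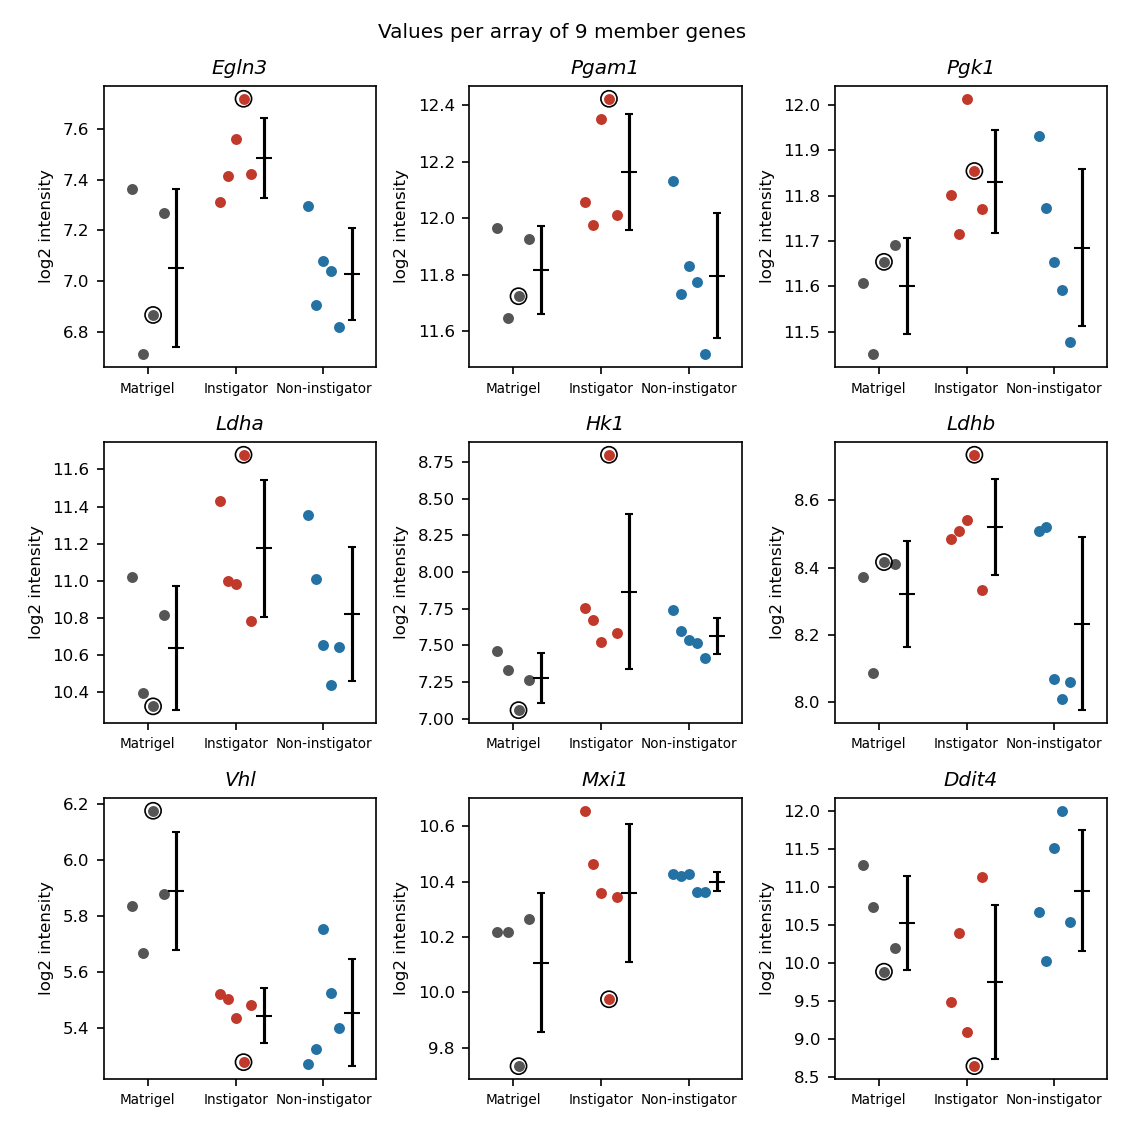
Points are arrays by group for 9 members, the y axis is log2 intensity, and the bar beside each group is its mean ± SD (n = 4, 5 and 5); open rings mark Matrigel 3 and Instigator 4. Egln3, Pgam1 and Ldha are highest in Instigator, Vhl is highest in Matrigel, and Ddit4 has the widest spread.

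**Figure D3:**
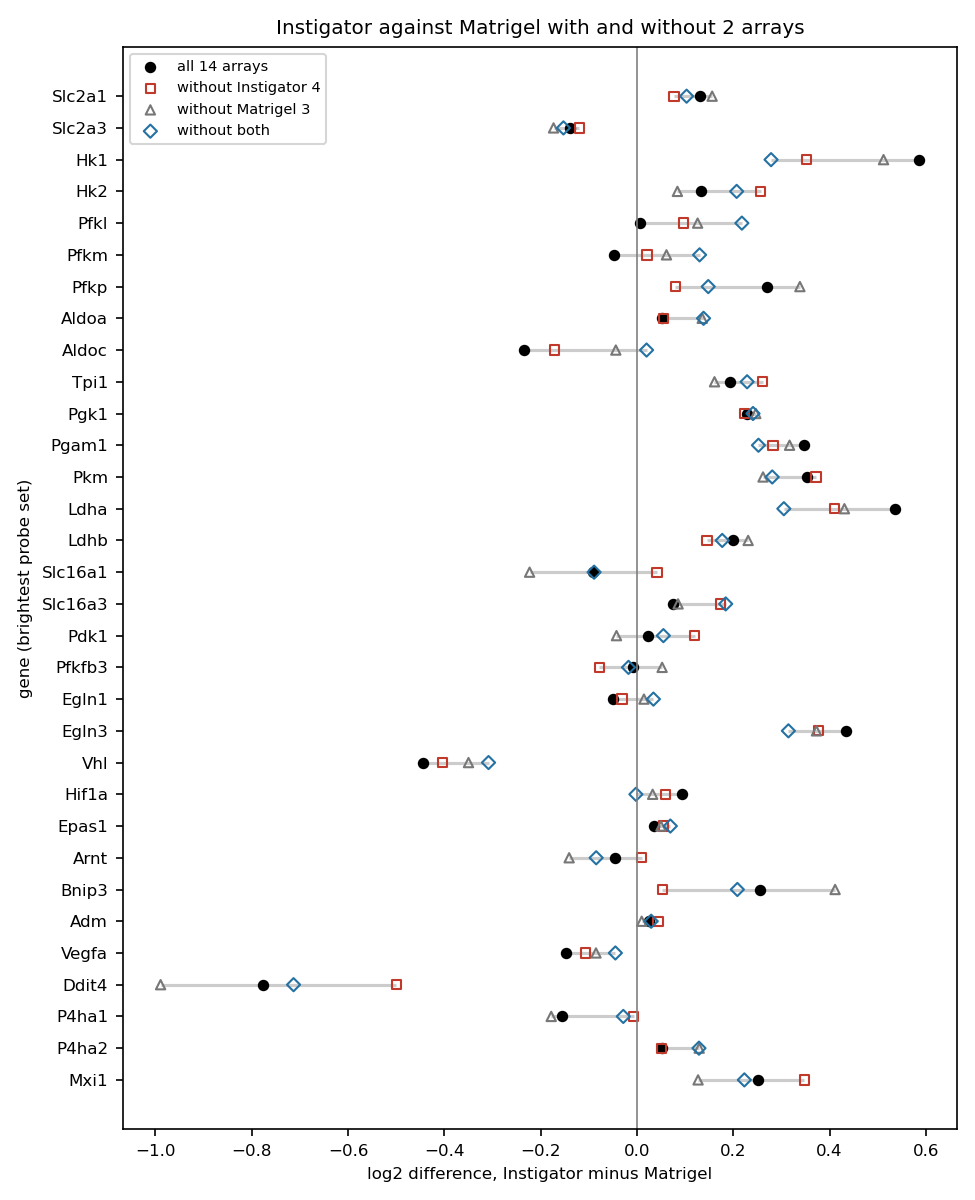
The x axis is the log2 difference of Instigator minus Matrigel for each of the 32 members, with all 14 arrays, without Instigator 4, without Matrigel 3 and without both. The Hk1 value drops from 0.59 to 0.35 and that of Bnip3 from 0.26 to 0.05 without Instigator 4, while Pgk1 stays at 0.22 to 0.25.

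Gapdh, the enzyme that oxidises glyceraldehyde phosphate, was read by its 3′ control set at 12.43, 12.14, 12.37 and 12.30 with Matrigel. The same set read 12.63, 12.45, 12.41, 12.83 and 12.31 with Instigator tumours, and 12.57, 12.41, 12.32, 12.22 and 12.14 with Non-instigator tumours. Instigator 4 was the highest array at the 3′ set, and at the 5′ set it was the lowest at 8.80, against 10.97 to 11.72 on the other arrays. All 3 groups overlapped at the 3′ set.

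**Figure D4:**
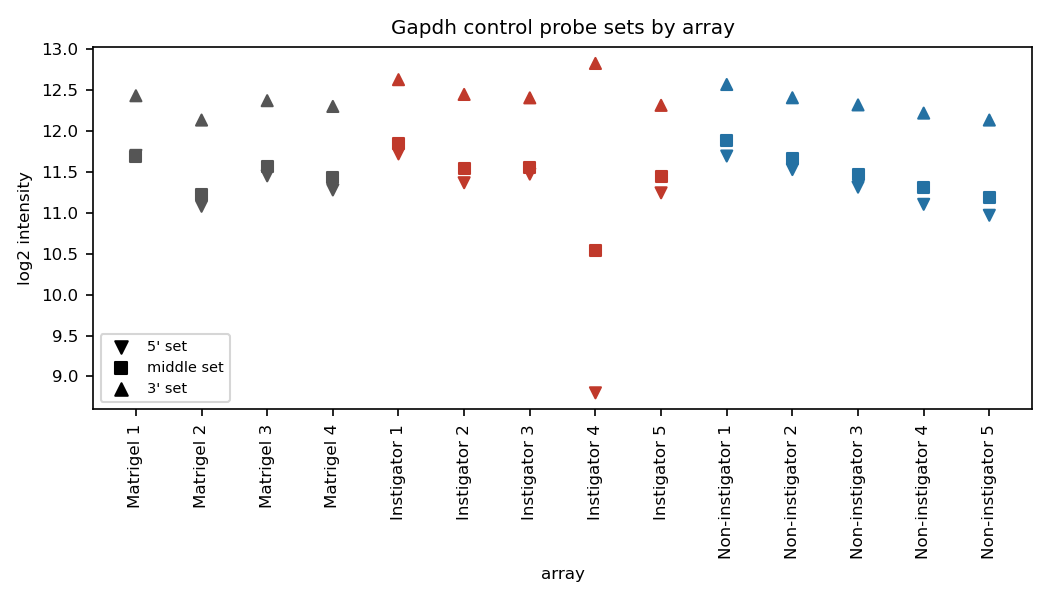
Log2 intensity of the 5′, middle and 3′ Gapdh control probe sets is plotted for each of the 14 arrays, coloured by group. The 5′ set is at 8.80 on Instigator 4 and at 10.97 to 11.72 elsewhere, while the 3′ set is at 12.14 to 12.83 on all arrays.

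Marrow of mice with the non-instigating tumour was then compared with Matrigel, to see what a tumour of like size that does not instigate shows in the same genes. The 2 comparisons share the Matrigel arrays. Mxi1 lay 1.23-fold higher and Vhl 1.35-fold lower, while Egln3 and Pgam1 differed by -0.02 each, Pgk1 by 0.08 and Ldha by 0.18 (0.08 without Matrigel 3). limma called 0 of 62 member probe sets and 0 of all probe sets (percent called 0), and the smallest adjusted p of a member was 0.986. At an unadjusted p under 0.05, 1 of 32 members lay higher, where 0.791% of all genes did, and 1 lay lower, where 1.17% did. Without Instigator 4 the higher members were Hk1 and Mxi1 (6.25%, against 1.38% of all genes). Without both Instigator 4 and Matrigel 3 they were Hk1, Pfkp and Mxi1 (9.38%, against 1.21%). Pkm was added without Matrigel 1, and was the only higher member without Non-instigator 4. Over the 32 members 19 were above 0, against 38.3% of all genes, with a median of 0.05, against -0.04 over all genes. Centred on each array's median, which shifts all genes alike, 27 of 32 members (84.4%) and 56.9% of all genes were above 0. After quantile normalization 23 of 32 (71.9%) and 51.2% were.

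Mxi1 read 10.22, 10.22, 9.73 and 10.26 with Matrigel and 10.43, 10.42, 10.43, 10.36 and 10.36 with Non-instigator tumours. The Non-instigator values hardly varied and all lay above Matrigel, as for 0.347% of all genes, with Matrigel 3 far below the rest. Without Matrigel 3, or without any 1 of the Non-instigator arrays, Mxi1 no longer had an unadjusted p under 0.05. The difference was 0.29 (95% confidence interval 0.02 to 0.57, limma adjusted p = 0.986), and 0.17 without Matrigel 3. A second, dimmer Mxi1 probe set gave 0.09 (SE 0.11). Vhl differed by -0.43 (95% confidence interval -0.68 to -0.19, limma adjusted p = 0.986), with Non-instigator 3 inside the Matrigel range, and by -0.34 without Matrigel 3.

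Pkm was the glycolysis member with the highest value, at 0.37 (SE 0.19), from 10.23 ± 0.34 (SD, n = 4) to 10.60 ± 0.35 (SD, n = 5). Slc16a3 read 8.41, 8.56, 8.54 and 8.53 with Matrigel and 8.86, 8.67, 8.71, 8.71 and 8.48 with Non-instigator tumours. Only Non-instigator 5 lay within the Matrigel range, and the difference was 0.18 (SE 0.12). Aldoc read 4.84, 5.13, 5.69 and 4.81 with Matrigel and 4.91, 5.27, 4.97, 4.67 and 5.08 with Non-instigator tumours, a difference of -0.14 (SE 0.17), and 0.05 without Matrigel 3. Egln1 read 9.17, 9.13, 9.42 and 9.17 against 9.22, 9.11, 8.83, 9.29 and 9.17, a difference of -0.10 (SE 0.10). Aldoc and Egln1 were highest on Matrigel 3, and their groups overlapped.

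At the brightest probe sets the remaining values had no unadjusted p under 0.05. Hk1 differed by 0.28 (SE 0.21), Hk2 by -0.07, Pfkl by 0.06, Pfkp by 0.10, Ldhb by -0.09, Pdk1 by 0.09, Pfkfb3 by -0.05, Hif1a by 0.06, Bnip3 by 0.08 and Vegfa by -0.05. Ddit4 differed by 0.43 (SE 0.49), and by 0.21 without Matrigel 3. The dimmer P4ha1 probe set gave -0.46 (SE 0.13), with an unadjusted p under 0.05 and on the same side as in Instigator marrow, while the brighter one gave -0.05.

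The direct comparison of both tumour groups asks where marrow of mice with instigating tumours stands apart from that of mice with other tumours of like size. Egln3 lay 1.37-fold, Pgam1 1.29-fold and Ldhb 1.22-fold higher in Instigator marrow, and Ddit4 lay 2.30-fold lower. limma called 0 of 62 member probe sets and 0 of all probe sets (percent called 0), and the smallest adjusted p of a member was 0.813. At an unadjusted p under 0.05, 3 of 32 members lay higher, where 2.41% of all genes did, and 1 lay lower, where 2.92% did. Without Non-instigator 1 the higher members were 5, with Pgk1 and Ldha added. Without Instigator 3, Instigator 4, Non-instigator 3 or Non-instigator 4 they were Egln3 and Pgam1, and Ddit4 was lost. Without Non-instigator 5 they were also Egln3 and Pgam1, with Ddit4 kept. Above 0 were 18 of 32 members, against 58.2% of all genes, with a median of 0.04, against 0.03 over all genes.

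The Egln3 difference was 0.46 (95% confidence interval 0.18 to 0.74, limma adjusted p = 0.813). All 5 Instigator arrays lay above all 5 Non-instigator arrays, from 7.31 against a highest value of 7.30, and 0.71% of all genes were separated in this direction. It was 0.40 without Instigator 4, and 0.41 with Instigator 5 counted as Non-instigator, a move that ends the separation. The second Egln3 probe set overlapped widely between these groups, from 6.55 to 7.79 in Instigator and 6.25 to 7.46 in Non-instigator marrow, and differed by 0.39 (SE 0.25). Pgam1 differed by 0.37 (95% confidence interval 0.11 to 0.63, limma adjusted p = 0.813), and only Non-instigator 1 reached into the Instigator range.

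Ldhb read 8.48, 8.51, 8.54, 8.74 and 8.33 with Instigator tumours, and 8.51, 8.52, 8.07, 8.01 and 8.06 with Non-instigator tumours. Non-instigator 1 and Non-instigator 2 lay among the Instigator arrays and the other 3 below them. The difference was 0.29 (95% confidence interval 0.03 to 0.55, limma adjusted p = 0.813), and 0.23 without Instigator 4. The 3 other Ldhb probe sets gave 0.68, 0.40 and 0.39. The set at 0.68 read 9.72 on Instigator 4 and 8.02 to 8.52 on the other Instigator arrays.

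Ddit4 read 10.68, 10.03, 11.52, 12.00 and 10.54 with Non-instigator tumours, against 8.65 to 11.14 with Instigator tumours. The difference was -1.20 (95% confidence interval -2.19 to -0.22, limma adjusted p = 0.813), the widest of any member, with overlap through Instigator 5 and Instigator 2. It was -0.93 without Instigator 4 and -1.58 with Instigator 5 counted as Non-instigator. Its SD within groups, 0.84, lay at percentile 99.9 of all genes.

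Slc2a3 read 11.16, 11.28, 11.17, 11.09 and 11.18 in Instigator marrow and 11.20, 11.11, 11.60, 11.44 and 11.41 in Non-instigator marrow, a difference of -0.18 (SE 0.11). Slc16a1 read 10.85, 10.56, 10.73, 10.00 and 10.52 against 10.69, 10.79, 10.80, 10.74 and 10.68, a difference of -0.21 (SE 0.15), with Instigator 4 the lowest of all 14 arrays, and -0.07 without it. Both pairs of groups overlapped. Ldha differed by 0.35 (SE 0.20), Hk1 by 0.30 (SE 0.19) and Pgk1 by 0.15 (SE 0.09). Both other Pgk1 probe sets gave 0.35 (SE 0.15) and 0.31 (SE 0.14), each at an unadjusted p under 0.05. Of the Instigator arrays, they were highest on Instigator 4. Without Instigator 4 the Hk1 value was 0.07 and the Ldha value 0.23, and that of Bnip3 went from 0.17 to -0.03. Pkm, Vhl, Hif1a, Slc2a1 and Egln1 differed by -0.02, -0.01, 0.03, 0.04 and 0.05. Here the 4 Hif1a probe sets ran from -0.45 to 0.03 and the 3 Slc2a1 sets from -0.13 to 0.04.

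**Figure D5:**
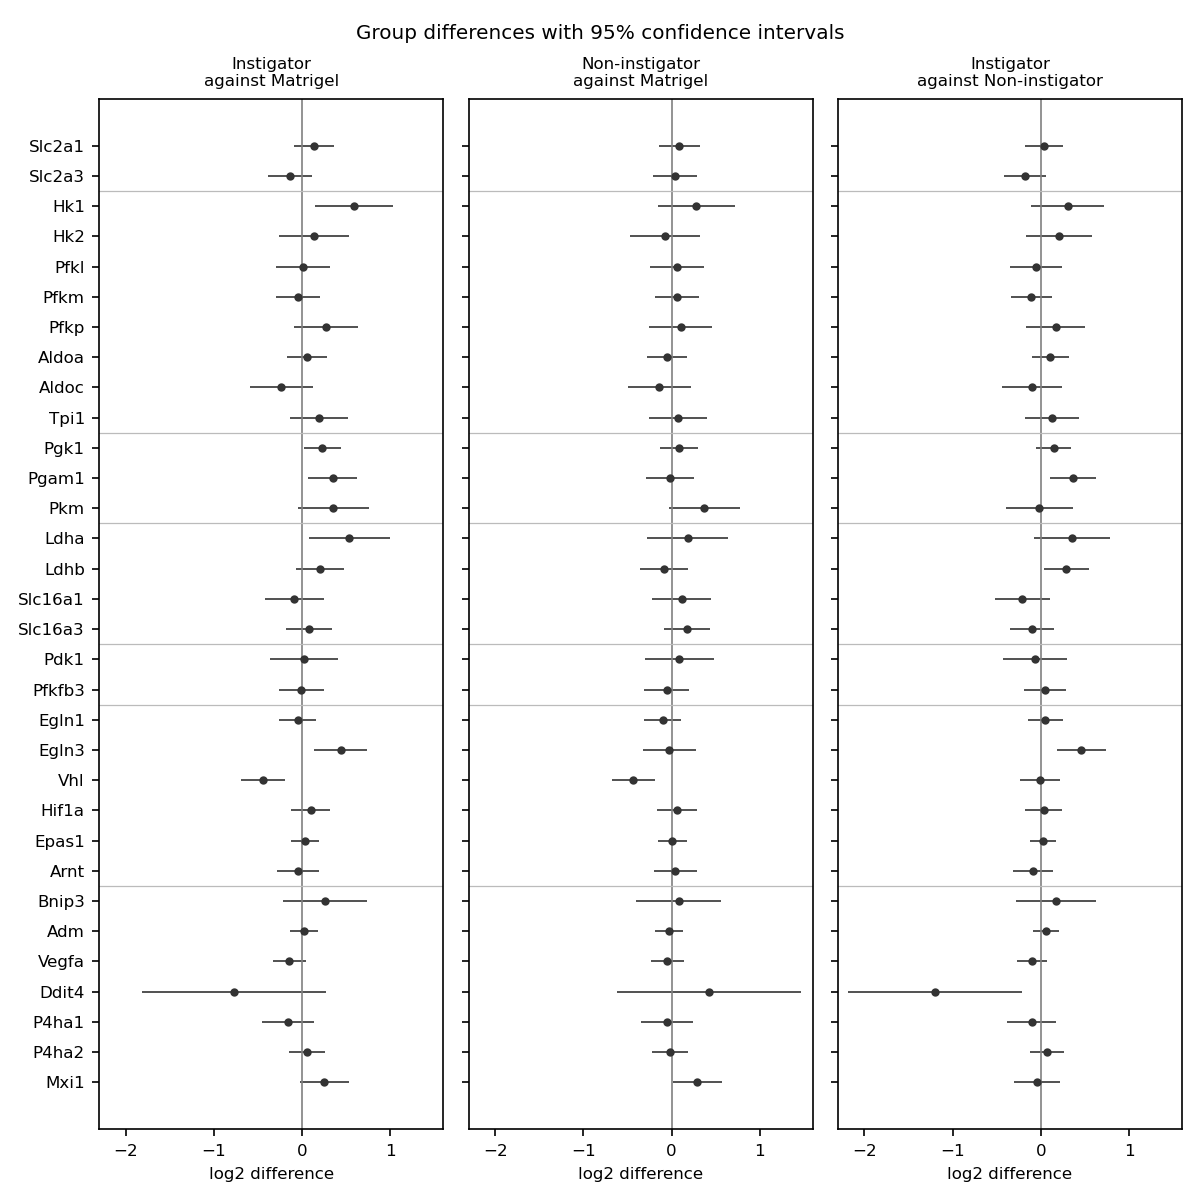
Points are log2 differences between group means for the 32 members in the 3 comparisons, and bars are 95% confidence intervals from limma over 14 arrays. The intervals of Egln3 and Pgam1 lie above 0 in both comparisons of Instigator, and those of Vhl lie below 0 in both comparisons with Matrigel.

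Probe sets of 1 gene did not always point the same way. Of the 19 members with several probe sets, all sets had the same sign for 10 between Instigator and Matrigel, for 10 between Non-instigator and Matrigel and for 6 between the tumour groups.

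Within groups, some arrays were at an extreme for many of the 19 glycolysis members. Non-instigator 1 was the highest of its group for 13 of them (68.4%, against 24.0% of all genes), and Non-instigator 5 the lowest for 9 (47.4%, against 20.1%). Matrigel 2 was the lowest of its group for 8 (42.1%, against 24.7%), and Instigator 3 the highest for 8 (42.1%, against 22.1%). Instigator 4 was split, as the highest of its group for 7 (36.8%, against 31.9%) and the lowest for 9 (47.4%, against 34.7%). Pgam1, Pgk1 and Ldha read 12.13, 11.93 and 11.36 on Non-instigator 1, each the highest of that group. These shares were not tested.

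Marker genes of other marrow cells also differed in value between these groups, with 0 called by limma. The 13 measured of 14 neutrophil markers had a mean log2 intensity of 11.90 to 12.18 on Matrigel arrays, 12.16 to 12.38 on Instigator arrays and 11.89 to 12.32 on Non-instigator arrays. Between Instigator and Matrigel 12 of the 13 lay above 0, with a median of 0.18. S100a8, Ltf, Ngp, Mmp8 and Cd177 had an unadjusted p under 0.05, where 3.63% of all genes lay higher. All 6 measured basophil and mast cell markers also lay above 0, with a median of 0.48, and Hdc was under that p. They all lay above 0 between Non-instigator and Matrigel as well, with a median of 0.39. Of 9 dendritic cell markers 8 lay below 0 between Instigator and Matrigel, with a median of -0.66 and 6 under that p. Of 10 B-lineage markers 9 did, with a median of -0.52 and 4 under that p, where 5.16% of all genes lay lower. Their part in the values of Egln3, Pgam1, Ldha and the other members was not tested. In these sorted samples a larger share of a cell type and more RNA per cell cannot be told apart.

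Further genes of the same pathways were counted from 3 lists. Of 28 measured other genes of glycolysis and carbon metabolism, 0 were called in any comparison, and 14 lay above 0 between Instigator and Matrigel. There Pygl, which breaks down glycogen, differed by 0.46 (SE 0.14), Pdk2, a relative of Pdk1, by 0.51 (SE 0.20), Pklr by 0.34 (SE 0.13) and Gpd2, of the glycerol phosphate shuttle, by 0.20 (SE 0.07), each at an unadjusted p under 0.05. Pgam2, the muscle form of the mutase, differed by -0.39 (SE 0.12), opposite to Pgam1. Of 6 measured pentose phosphate genes 5 lay above 0, with Pgd at 0.51 (SE 0.21). Of 31 measured other hypoxia genes 13 lay above 0, with Plin2, a lipid droplet coat protein, at 0.51 (SE 0.18) and Hmox1, which degrades haem, at -0.68 (SE 0.23). Between Non-instigator and Matrigel only Gpd2 of these lists, at 0.21 (SE 0.07), had an unadjusted p under 0.05, and between the tumour groups only Flt1 at 0.24 (SE 0.10) and Rora at -0.43 (SE 0.19) did.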

How the data were processed

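Per the labels, RNA of sorted marrow cells was extracted with Qiagen kits, amplified and biotin-labelled with the NuGen Ovation system and hybridised to Affymetrix mouse arrays, 1 sample per array. The deposited table holds linear intensity values, which the authors made with RMA (affy, R 2.11.0), per the submitters' processing notes. The options they chose are not stated. RMA as a method corrects background, normalizes between arrays and summarises probes.

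The deposited intensity values were put on the log2 scale, with no further normalization. Of 22690 probe sets the 64 array controls were left out of the tests. Group means were compared by limma 3.58.1 under R 4.3.3 (eBayes without trend or robust estimation) in 1 fit of 14 arrays, and p-values were adjusted over 22626 probe sets and called under 0.05. The number of arrays limits the precision. Symbols came from the platform annotation, and 691 probe sets that carry several symbols stayed unnamed. Figures used matplotlib 3.10.9 and Python 3.11.15.

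The members and all lists were chosen with earlier results of these data known. Values per array were given for members with an unadjusted p under 0.05 (up to 6 per direction and comparison, and the 3 smallest p where fewer than 3), and a set of members always has values. Cell lists covered neutrophil, erythroid, B, T, dendritic, macrophage, basophil and mast cell, progenitor, endothelial and mesenchymal markers. Between Instigator and Matrigel the lists not given in the report had medians of -0.11 (erythroid), -0.16 (T cell), 0.04 (macrophage and monocyte), 0.06 (stem and progenitor), -0.05 (endothelial) and 0.01 (mesenchymal), with 0 genes called. The fit was tested on simulated data. Promoter sequences came from RefSeq (GRCm38.p6), with 250 bases before each start searched. Alternatives were the groups alone, quantile normalization, median centring, the brighter probe sets, an intensity trend with a robust fit, weights per array, a replicate block, Instigator 5 moved, each array or both Instigator 4 and Matrigel 3 left out, and other choices of probe set.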

Additional observations from a re-analysis of the deposited data

Results flagged for a closer look

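Of 75 groups of arrays tested over 24 genes and the median deviation of the members, 7 held an array far from the others of its group by Dixon's test, where chance gives about 1 in 20. Instigator 4 was the array in 4 of them. It read high for Hk1 at 8.80 (next 7.75) and Pfkp at 10.83 (next 9.93), and low for Pfkl at 7.22 (next 7.63) and Vegfa at 5.72 (next 5.89). Matrigel 3 read high for Egln1 at 9.42 (next 9.17) and low for Mxi1 at 9.73 (next 10.22). Matrigel 2 read low for Ldhb at 8.09 (next 8.37).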

How the results depend on the processing

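The count of called probe sets and of called member probe sets, and the median difference of the members, stayed within the limits set in 207 repeats with another setting, and beyond them in the 6 given here, while of 1544 repeats for named genes 100 turned the sign, all of differences of at most 0.17 and 0 of them for a gene with an unadjusted p under 0.05, and 4 of these moved by more than the SD within groups. Between Instigator and Matrigel 1 probe set, of no member, was called without Instigator 4 (range 0 to 1 over arrays left out) and without both Instigator 4 and Matrigel 3. There the member median was 0.13 without both, 0.13 in the brighter probe sets and 0.13 after median centring, and after centring it was 0.11 between Non-instigator and Matrigel. The median over all genes moved as well. Between Instigator and Matrigel it went from -0.02 to 0.03 without both and to 0.06 after centring. Between Non-instigator and Matrigel it went from -0.04 to 0.02 after centring. Leaving out each array gave medians of 0.03 to 0.08, 0.01 to 0.06 and 0.02 to 0.06 in the 3 comparisons. Those 4 used the mean of all probe sets, where Hif1a differed by -0.20 and -0.22 from Matrigel and Non-instigator, and Vegfa by 0.04 and 0.08 in Instigator and Non-instigator marrow against Matrigel. With a replicate block the medians were 0.07, 0.04 and 0.04 and 0 probe sets were called. Same-numbered arrays of different groups correlated at -0.20 to 0.27 over 13 pairs, and differently numbered ones at -0.395 to 0.317. These values cannot decide whether the numbers pair the arrays. Scaling turned the split of all probe sets at an unadjusted p under 0.05 between Instigator and Matrigel from 740 higher and 1584 lower to 1298 and 1198 (quantile) and 1772 and 961 (centred). The cause was not tested.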
